A study of Mus musculus with 32 samples.

Results

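The 10 genes described here are those of the circadian clock that were looked up by symbol among the 27998 genes of the deposited matrix, namely Arntl, Clock, Per1, Per2, Per3, Cry1, Cry2, Nr1d1, Nr1d2 and Dbp. All 10 were found and all 10 passed a minimum of 50 UMIs over all cells. They were measured in single cells of the median eminence (ME), the strip of tissue at the base of the hypothalamus where neurosecretory axons meet the portal blood vessels. The cells came from young male mice of the C57B/L6 strain, 5 of which were fasted overnight and 5 of which were fasted overnight and then given back normal chow for 1 h. The tissue of the 5 mice of each treatment was combined, and the cells of each treatment were split over 2 libraries of the 10x Genomics 3′ droplet chemistry, so each treatment is 1 pool of mice. Each barcode carries a final number, 1 to 4, which the labels connect with neither a library nor a treatment. The fasted and refed mice were therefore not compared, every value below is for all mice together, and no test between samples was made.

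The mammalian clock is a feedback loop of transcription that runs in nearly every cell. ARNTL (also called BMAL1) and CLOCK bind E-boxes as a pair and switch on the Per and Cry genes, whose proteins return to the nucleus and block the pair. The same pair drives Nr1d1 and Nr1d2, which encode the REV-ERB receptors that repress Arntl, and Dbp, which encodes a factor that binds D-boxes in output genes. Arntl mRNA therefore peaks at about the opposite time of day to Dbp and Nr1d1. The suprachiasmatic nucleus (SCN), a pair of cell groups in the hypothalamus that receives light signals, sets the time for the rest of the body. All mice were killed within one window early in the light phase, so the data hold no time course and no phase was estimated. The ratio of the Per, Dbp and Nr1d transcripts to Arntl was compared between cell types instead.

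The promoter windows below run from 250 bases before to 50 bases after an annotated transcript start, on the strand of the gene, and are RefSeq sequence of the GRCm38.p6 build. The table held 13 windows for 9 of the 10 genes, and Per2 had no entry. These 4 windows are shown because each carries a motif through which clock proteins are known to act. Capitals mark the motif, and a motif on the other strand reads as its reverse complement. In Per1 (chr11:69098699-69098998, plus strand) and Cry1 (chr10:85185005-85185304, minus strand) the E-box CACGTG is marked, and in Cry1 also the E-prime box CACGTT, which reads AACGTG there. In Per3 (chr4:151044616-151044915, minus strand) both copies of the D-box TTATGTAA are marked, and in Arntl (chr7:113207261-113207560, plus strand) the ROR element TAGGTCA, which REV-ERB and ROR receptors bind.
Per1: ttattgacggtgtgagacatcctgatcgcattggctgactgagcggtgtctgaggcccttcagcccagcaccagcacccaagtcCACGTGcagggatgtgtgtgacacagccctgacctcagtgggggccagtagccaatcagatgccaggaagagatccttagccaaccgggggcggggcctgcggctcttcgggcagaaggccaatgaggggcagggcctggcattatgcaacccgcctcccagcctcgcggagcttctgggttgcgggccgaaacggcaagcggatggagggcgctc
Cry1: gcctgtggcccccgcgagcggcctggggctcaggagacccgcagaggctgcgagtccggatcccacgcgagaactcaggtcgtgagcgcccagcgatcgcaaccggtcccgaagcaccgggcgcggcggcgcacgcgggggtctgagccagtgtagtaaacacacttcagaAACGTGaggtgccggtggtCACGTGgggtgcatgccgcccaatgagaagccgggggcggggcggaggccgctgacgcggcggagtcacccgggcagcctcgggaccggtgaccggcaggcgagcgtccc
Per3: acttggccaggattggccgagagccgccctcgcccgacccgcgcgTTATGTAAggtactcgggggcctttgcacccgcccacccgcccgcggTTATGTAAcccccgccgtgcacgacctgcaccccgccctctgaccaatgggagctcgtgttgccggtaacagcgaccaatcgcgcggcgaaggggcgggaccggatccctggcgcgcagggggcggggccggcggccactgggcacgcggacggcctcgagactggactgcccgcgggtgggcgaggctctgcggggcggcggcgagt
Arntl: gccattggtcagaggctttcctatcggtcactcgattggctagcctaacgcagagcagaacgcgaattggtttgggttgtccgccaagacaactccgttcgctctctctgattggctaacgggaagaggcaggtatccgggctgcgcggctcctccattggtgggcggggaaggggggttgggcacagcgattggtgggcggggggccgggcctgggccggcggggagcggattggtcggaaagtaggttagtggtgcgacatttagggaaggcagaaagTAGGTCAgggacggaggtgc
Each motif was searched on both strands of all 32851 windows. The E-box was in 7.15% of them and in windows of Per1 and Cry1. The E-prime box was in 4.68% and in windows of Cry1, Cry2 and Nr1d1. The D-box was in 0.938%, the ROR element in 2.61% and the cyclic AMP response element TGACGTCA in 1.79%, the last with no match in the windows of these genes. E-box and E-prime box differ in 1 letter, so 1 site is never counted as both. A match says only that these letters are present, and a window without one says nothing of the factor.

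The matrix held 5982 cells and 29288898 UMIs (unique molecular identifiers, each standing for 1 captured transcript), with a median of 3837 UMIs per cell. The 4 barcode numbers held 1359 to 1642 cells each, with medians of 3518 to 4057 UMIs, and 21 of the 5961 distinct barcodes occurred under more than 1 number. Cells were clustered with the clock genes and their partners left out of the genes used, and 24 of 28 clusters were named from marker genes, which gave 13 cell types. A further 570 cells in 4 clusters stayed unnamed, and 3 cells with red blood cell RNA were set apart. Types are abbreviated OPC (oligodendrocyte progenitor cell), diffOPC (differentiating OPC), MOL (mature oligodendrocyte) and VLMC (vascular and leptomeningeal cell). Levels are UMIs of a gene per 1000000 UMIs of the cells of a type (CPM), and intervals are exact 95% Poisson intervals that cover counting error only, since UMIs of 1 cell are not independent and the cells are not replicates. The types differed in depth, from a median of 2245.5 UMIs in endothelial cells to 12821.5 in neurons. Mbp, a myelin gene, stood at 8482 CPM in MOLs and still at 113 CPM in tanycytes and 119 CPM in microglia. Whether this was RNA free in the suspension, and what part such RNA had in the lowest clock gene levels, was not tested.

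Together the 10 genes gave 15779 UMIs, or 539 in each 1000000. Their summed level was 936 CPM in astrocytes, 884 CPM in the pars tuberalis, 798 CPM in ependymocytes and 767 CPM in tanycytes, the ependymoglial cells that line the third ventricle floor. It was 496 CPM in neurons, 429 CPM in OPCs, 398 CPM in VLMCs and 397 CPM in mural cells. The lowest sums were those of MOLs (183 CPM), macrophages (138 CPM) and microglia (135 CPM). Within each of astrocytes, tanycytes and MOLs the 4 barcode numbers gave narrow ranges, of 873 to 990 CPM, 715 to 794 CPM and 178 to 188 CPM, and that of MOLs lies far below the others. In the pars tuberalis, with 60 cells, the range was 608 to 1181 CPM.

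Among the activators, Arntl was read from 467 UMIs and stayed low in every type. It was highest in ependymocytes, at 35.1 CPM (interval 23.9 to 49.9), with 47.1, 12.7, 21.1 and 50.3 CPM under barcode numbers 1 to 4. Astrocytes stood at 22.3 CPM (17.8 to 27.4), neurons at 18.7 CPM (15.6 to 22.3), tanycytes at 12.2 CPM (9.26 to 15.8) and MOLs at 9.79 CPM (7.14 to 13.1). Endothelial cells gave 0 UMIs, which at their depth allows a level of up to 14.0 CPM (3 counts). Along the whole order of 13 types, each of the 12 pairs of neighbours had overlapping intervals.

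Clock encodes the partner of ARNTL and varied least among the genes with more than 1000 UMIs, by 4.39-fold from OPCs to mural cells. It was read from 1354 UMIs and had its highest level in OPCs, at 87.9 CPM (72.1 to 106), with 110.2, 79.0, 44.6 and 99.6 CPM under numbers 1 to 4. The pars tuberalis followed at 61.3 CPM and neurons at 51.5 CPM, and tanycytes stood at 37.8 CPM (32.5 to 43.8). Microglia, where other clock genes were low, still had 33.2 CPM (24.2 to 44.4). The interval of OPCs overlapped those of the pars tuberalis and endothelial cells but of no other type.

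Of the period genes, which encode the PER repressors, Per3 gave most of the UMIs (3506, against 574 for Per1 and 157 for Per2). UMIs near the 3′ end are counted with an efficiency that differs between genes, so these numbers do not rank the genes by transcript number. Per3 was highest in the pars tuberalis (288 CPM, interval 239 to 343) and astrocytes (284 CPM, 267 to 301), followed by tanycytes (186 CPM, 174 to 199). In the pars tuberalis it stood at 174, 186, 422 and 375 CPM under numbers 1 to 4, a spread wider than the interval. In astrocytes it stood at 301, 296, 280.4 and 253 CPM under numbers 1 to 4, and in tanycytes at 193, 185, 172 and 190.3 CPM. All 4 astrocyte values lie above all 4 tanycyte values. Per3 then fell off in OPCs (102 CPM), ependymocytes (95.2 CPM), neurons (91.7 CPM) and VLMCs (87.4 CPM), whose intervals overlap. The lowest level was that of MOLs, 13.5 CPM (10.3 to 17.3), with 17.5, 12.5, 13.8 and 10.1 CPM under the 4 numbers, which is 21.3-fold below the pars tuberalis.

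Per1, a period gene that light and cyclic AMP signals can induce within minutes, lay between 9.87 CPM in macrophages and 36.0 CPM in mural cells, and every type's interval overlapped that of the mural cells, of which there were 78. Among the large types it was 25.8 CPM (21 to 31.4) in astrocytes, 22.3 CPM (18.9 to 26.1) in neurons, 18.9 CPM (15.2 to 23.3) in tanycytes and 15.4 CPM (12.1 to 19.5) in MOLs. Per2 was the scarcest of the 10. It reached 12.3 CPM (9.05 to 16.3) in astrocytes, with 18.4, 8.41, 10.1 and 11.4 CPM under numbers 1 to 4, against 4.2 CPM (2.57 to 6.49) in tanycytes and 1.31 CPM (0.479 to 2.84) in MOLs. No UMI of Per2 was found in diffOPCs, microglia or endothelial cells, which allows up to 2.65, 2.21 and 14.0 CPM.

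The cryptochrome genes encode the partners of the PER proteins, and the pair differed in where it was high. Cry2 was highest in astrocytes (170.1 CPM, interval 157 to 184) and tanycytes (148 CPM, 137 to 159), followed by ependymocytes (97.5 CPM) and neurons (70.0 CPM, 63.9 to 76.6). In astrocytes it stood at 193, 174, 146.5 and 159 CPM under numbers 1 to 4, and in tanycytes at 158, 152, 124 and 152 CPM, so these 2 types overlap. It was 12.5 CPM (7.30 to 20.1) in microglia and 9.87 CPM in macrophages. Cry1 had its highest level in diffOPCs, a type with low levels of Per3, Cry2, Dbp and both Nr1d genes, at 52.0 CPM (39.6 to 67.1), with 53.0, 51.0, 60.1 and 42.4 CPM under the 4 numbers. Astrocytes stood at 39.9 CPM (33.9 to 46.7), neurons at 29.8 CPM, MOLs at 28.1 CPM and microglia at 8.84 CPM (4.57 to 15.4).

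Nr1d1, which encodes REV-ERBα, was highest in ependymocytes (116 CPM, interval 94.3 to 140.3) and astrocytes (95.4 CPM, 86.0 to 106). Ependymocytes gave 135, 139.8, 109.7 and 97.5 CPM under numbers 1 to 4, and astrocytes 99.5, 105, 84.6 and 89.3 CPM, so both sets overlap. Tanycytes, next to ependymocytes along the ventricle wall, stood at 44.4 CPM (38.6 to 50.8), with 49.0, 44.9, 41.2 and 40.5 CPM, all below the 4 astrocyte values. Nr1d1 was 8.92 CPM (6.40 to 12.1) in MOLs, 9.58 CPM in microglia and 9.70 CPM in diffOPCs. Nr1d2, which encodes REV-ERBβ, was spread more evenly: it was 48.7 CPM (35.3 to 65.7) in ependymocytes, 42.5 CPM (37.7 to 47.7) in neurons, 39.5 CPM (34.1 to 45.6) in tanycytes and 29.4 CPM (24.3 to 35.3) in astrocytes. Of the 12 other types, 8 had intervals that overlap that of ependymocytes. The 4 types outside that range were diffOPCs, MOLs, microglia and macrophages, at 6.63 to 9.87 CPM.

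Dbp, the output gene of the loop, gave the most UMIs of the 10 (4155). It was highest in ependymocytes (295 CPM, interval 260.0 to 333), the pars tuberalis (288 CPM, 239 to 343) and tanycytes (251 CPM, 237 to 266), followed by astrocytes (209 CPM, 195 to 224). Tanycytes gave 264, 262, 235 and 236 CPM under numbers 1 to 4 and astrocytes 206, 236, 203 and 189 CPM. Neurons stood at 129 CPM (121 to 138), VLMCs at 76.3 CPM and OPCs at 68.4 CPM (54.6 to 84.7). MOLs, microglia, macrophages and diffOPCs stood between 15.9 and 25.0 CPM, with no overlap between their 4 intervals and that of OPCs. In mural cells Dbp was 282, 320.3, 102 and 13.9 CPM under the 4 numbers, and in the pars tuberalis 130.4, 319, 220.4 and 534 CPM, a spread wider than the pooled intervals, so the place of these small groups in the order is not firm.

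**Figure D1:**
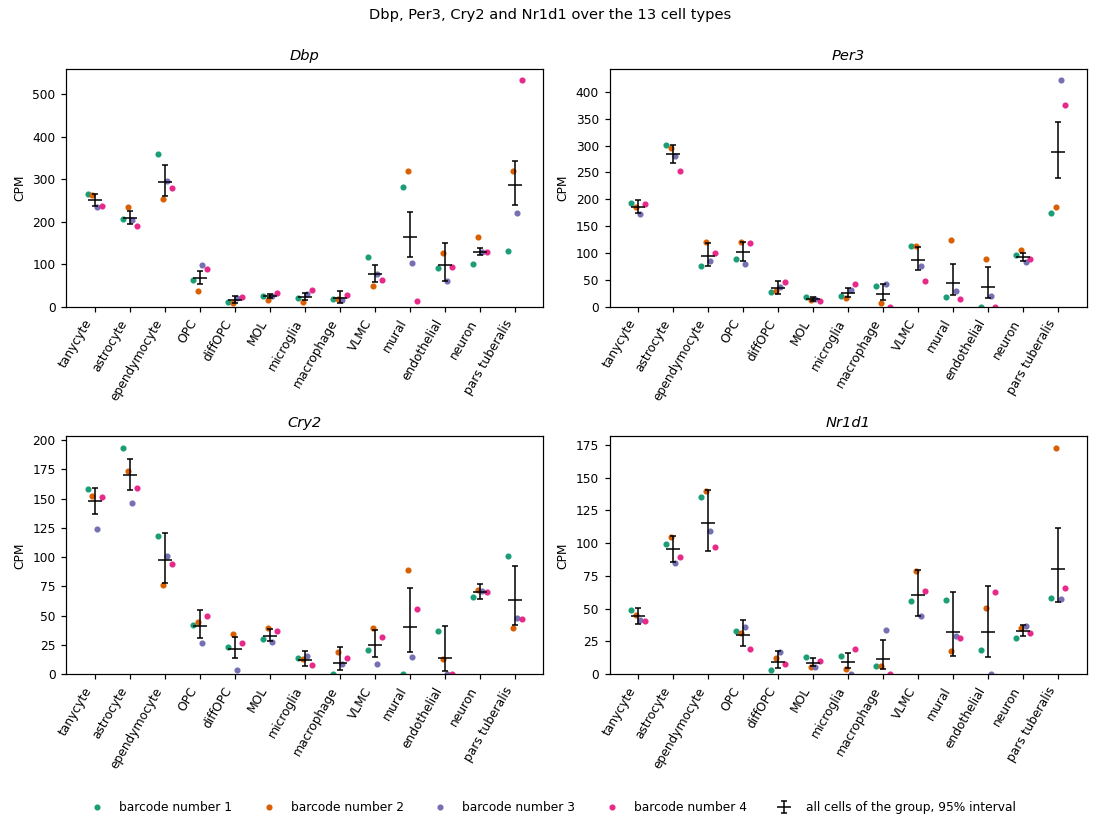
Level in CPM (y axis, from 0) of Dbp, Per3, Cry2 and Nr1d1 in each of the 13 cell types (x axis). Black dashes are all cells of a type with the exact 95% Poisson interval, and colored points are the 4 barcode numbers. Dbp stands at 251 CPM in tanycytes and 209 CPM in astrocytes and at 25.0 CPM in MOLs, and the points of mural cells and the pars tuberalis scatter widely.

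**Figure D2:**
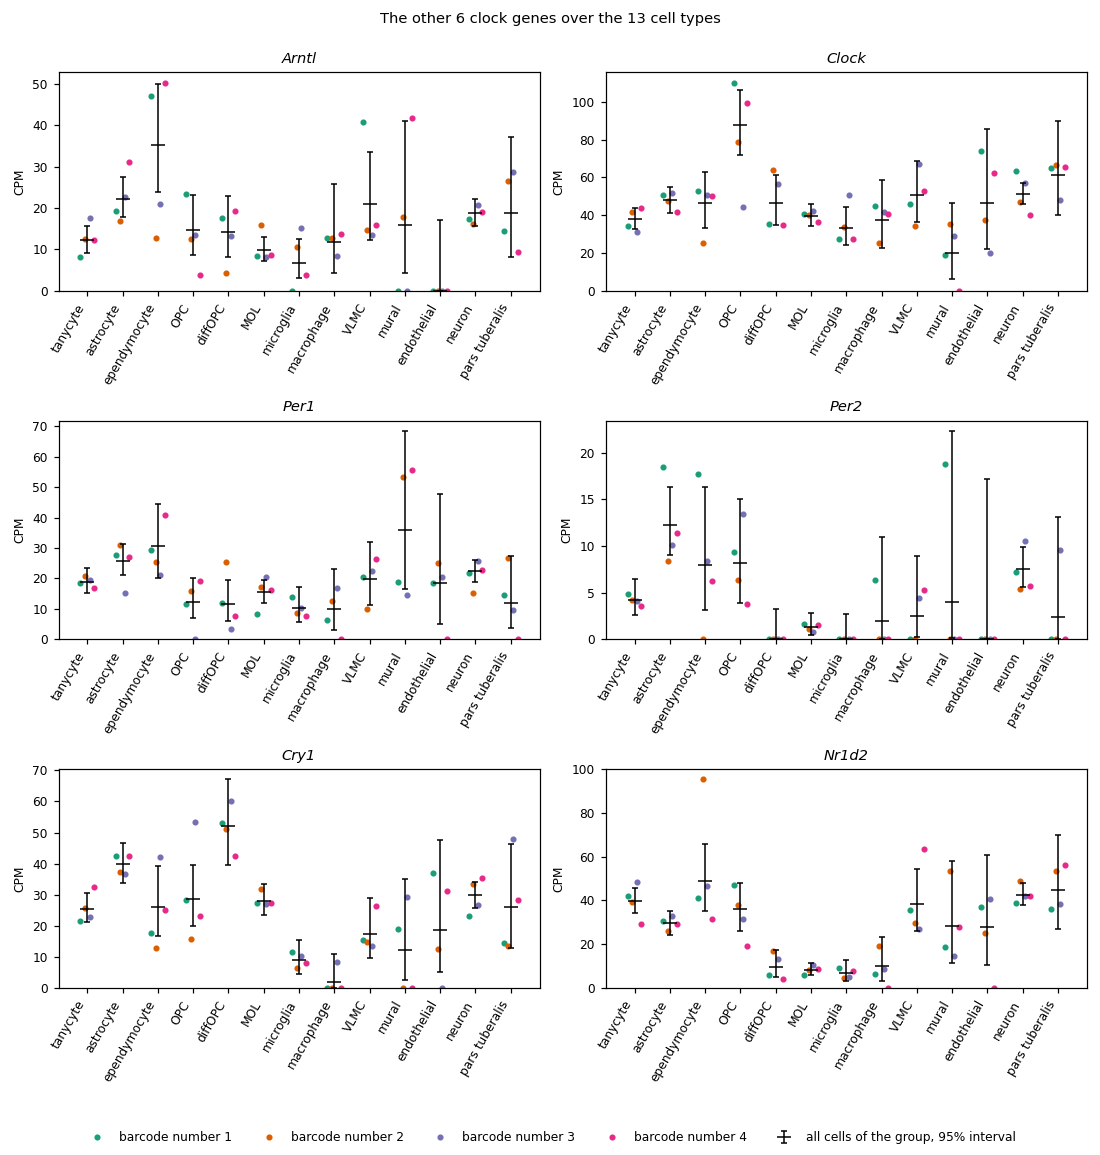
Level in CPM (y axis, from 0, with its own scale in each panel) of Arntl, Clock, Per1, Per2, Cry1 and Nr1d2 in the 13 cell types (x axis), drawn with the same dashes, intervals and points. Clock is highest in OPCs at 87.9 CPM and Cry1 in diffOPCs at 52.0 CPM, and most intervals of Arntl and Per1 overlap.

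Differences between a type and all other cells were counted at a fixed size of at least 2-fold after 10 CPM had been added to both levels, over the 13951 genes with at least 50 UMIs. With 10 CPM added, a gene below 10 CPM in the reference cells cannot be called lower, here or in the later counts. Such genes, of which Per2 is an example at 5.36 CPM over all cells, stay in the totals. The added 10 CPM also raises the raw fold that a low gene needs to be called higher. The shares of all genes called higher or lower are therefore not shares of genes at the level of most clock genes. In astrocytes 3 of the 10 genes (Per3, Cry2 and Nr1d1) were at least 2-fold higher, where 5.28% of all genes were. In ependymocytes 2 of 10 (Nr1d1 and Dbp) were higher, where 8.8% of all genes were. In the pars tuberalis 1 of 10 (Per3) was higher, where 2.92% of all genes were, and in tanycytes 0 of 10, where 3.08% were. On the low side, MOLs had 5 of 10 at least 2-fold lower (Per3, Cry2, Nr1d1, Nr1d2 and Dbp) where 19.3% of all genes were lower. The same 5 genes were lower in diffOPCs, where 13.2% of all genes were. In microglia 6 of 10 were lower, these 5 and Cry1, where 19.8% of all genes were, and in macrophages the same 6 of 10, where 19.1% were. Taking the highest type over the lowest, 6 of 10 genes spanned at least 4-fold, where 46.1% of all genes did, so a wide span alone was common. The median log2 difference of the 10 genes from all other cells was 0.52 in astrocytes (all genes −0.23) and −1.24 in microglia (all genes −0.37).

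The ratio of the summed UMIs of Per1, Per2, Per3, Dbp, Nr1d1 and Nr1d2 to those of Arntl was 22.6 over all cells, with an exact Clopper-Pearson interval of 20.6 to 24.9. It was 44.6 (34.4 to 58.9) in tanycytes and 29.5 (23.8 to 37.0) in astrocytes, and 17.4 (14.6 to 21) in neurons and 16.9 (11.7 to 25.1) in ependymocytes. In MOLs it was 7.40 (5.41 to 10.3) and in diffOPCs 5.75 (3.36 to 10.48). Ependymocytes had 112, 100, 134 and 177 UMIs of the Per, Dbp and Nr1d genes under numbers 1 to 4. Their Arntl UMIs were 8, 2, 5 and 16, so their ratio spread beyond the pooled interval. The intervals of tanycytes, neurons and MOLs do not overlap one another. With every cell thinned to 1000 UMIs and clustered again, the ratio was 35.8 in tanycytes, 30.7 in neurons and 8.33 in MOLs. The neuron value lay outside the interval of the full-depth neuron ratio. Thinning also gave 31.3 in OPCs and 19 in diffOPCs. No interval was made for the thinned ratios, which rest on few Arntl UMIs. Among cells typed at full depth, thinning left Arntl in 19 tanycytes, 6 neurons, 6 MOLs, 3 OPCs and 1 diffOPC. A shift with depth therefore cannot be told from counting error here. In each of the 12 types with an Arntl UMI the summed UMIs of the Per, Dbp and Nr1d genes outnumbered those of Arntl, by at least 5.75 to 1. This sets several genes against a single gene and is not a ratio of transcript numbers, since counting efficiency differs between genes. Endothelial cells had 46 UMIs of the other genes and none of Arntl, which with 3 counts as the limit for Arntl gives a ratio of at least 15.3.

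Split by gene group, the types kept much of this order. Tanycytes led for Per (17.2 UMIs per UMI of Arntl), Dbp (20.6) and Nr1d (6.88), each followed by the pars tuberalis (16.0, 15.3 and 6.63). The last places were held by macrophages for Per (3, from 6 UMIs of Arntl) and by diffOPCs for Dbp (1.13) and Nr1d (1.38). Ependymocytes changed place: they were close to astrocytes for Dbp (8.39 against 9.41) and Nr1d (4.68 against 5.61), but below them for Per (3.81, interval 2.54 to 5.85, against 14.5, interval 11.6 to 18.2). Under numbers 1 to 4 ependymocytes had 21, 23, 27 and 47 Per UMIs against 8, 2, 5 and 16 of Arntl. Astrocytes had 377, 359, 242 and 281 against 21, 18, 18 and 30. The Per ratio was lower in ependymocytes under each number, but the 2 sets of ratios overlap. The summed ratio and those by gene group share the same Arntl UMIs, which were under 20 in OPCs, diffOPCs, microglia, macrophages, VLMCs, mural cells and the pars tuberalis.

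**Figure D3:**
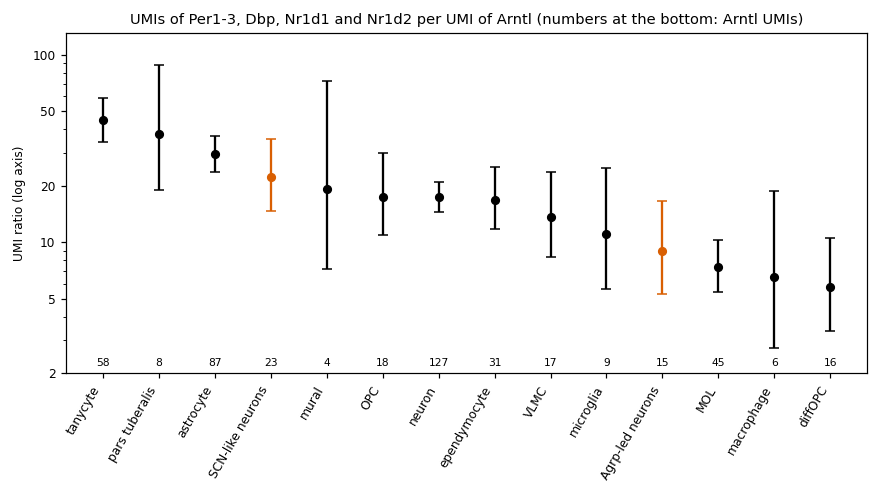
UMIs of the 3 Per genes, Dbp and both Nr1d genes per UMI of Arntl (y axis, log scale) by cell type in falling order (x axis), with exact 95% intervals. The SCN-like and Agrp-led neuron clusters are in orange, and the number of Arntl UMIs stands under each point. Tanycytes are at 44.6 and diffOPCs at 5.75, and endothelial cells, with no Arntl UMI, are left out.

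Related clock genes were not in a constant proportion to each other, a comparison made after the levels had been seen. Cry2 UMIs outnumbered Cry1 UMIs 5.82-fold (interval 4.79 to 7.12) in tanycytes, 4.26-fold (3.58 to 5.11) in astrocytes and 2.35-fold (1.99 to 2.79) in neurons. In MOLs the ratio was 1.18 (0.926 to 1.5), and in diffOPCs Cry1 was ahead, at 0.407 (0.242 to 0.664). Nr1d1 over Nr1d2 was 3.24 (2.62 to 4.03) in astrocytes, 1.12 (0.918 to 1.37) in tanycytes and 0.778 (0.650 to 0.929) in neurons. The 4 barcode numbers gave 2.58 to 4 in astrocytes and 0.704 to 0.879 in neurons, which do not overlap. Dbp over Per3 was 3.10 (2.41 to 4.01) in ependymocytes, 1.35 (1.24 to 1.47) in tanycytes and 0.738 (0.673 to 0.808) in astrocytes. Deeper cells weigh more in these pooled ratios.

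**Figure D4:**
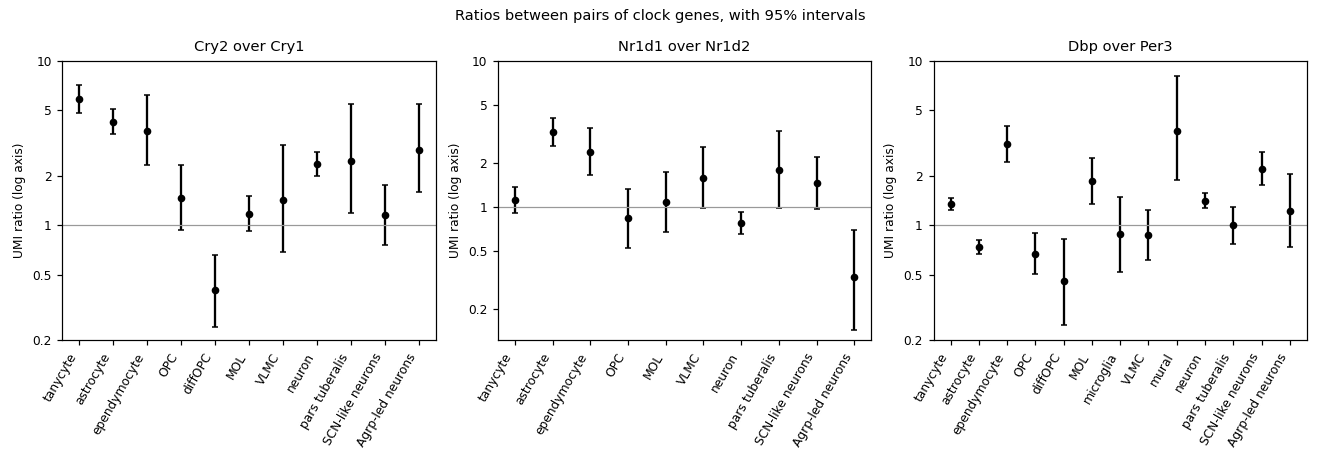
UMI ratio (y axis, log scale) of Cry2 over Cry1, Nr1d1 over Nr1d2 and Dbp over Per3 by cell type (x axis), with exact 95% intervals, for groups with at least 30 UMIs of the pair. The gray line marks equal counts. Cry2 over Cry1 runs from 5.82 in tanycytes to 0.407 in diffOPCs.

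The 556 neurons fell into 5 clusters named by their leading genes, and one of them, of 90 cells, was called SCN-like from its markers. Vip, Avp, Nms, Prok2, Rgs16, Lhx1 and Vipr2, genes typical of SCN neurons, were highest in this cluster, with Vip at 2246 CPM against 1.66 to 4.68 CPM in the other clusters. The ME does not contain the SCN, and whether these cells came from neighboring tissue in the dissection was not tested. The barcode numbers held 19, 18, 24 and 29 of them. Their median depth of 6881.5 UMIs was below that of the other neurons, 13937.5.

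In the SCN-like neurons 4 of the 10 clock genes (Per3, Cry1, Nr1d1 and Dbp) were at least 2-fold higher than in the other 466 neurons, where 2.07% of all genes were. The median log2 difference of the 10 genes was 0.76, against −0.06 over all genes. Dbp stood at 410.1 CPM (interval 362 to 463) against 100.5 CPM (92.7 to 109), 4.08-fold higher (3.52 to 4.73). Under numbers 1 to 4 it was 369.8, 422, 389 and 445 CPM in the SCN-like neurons and 75.2, 135, 106 and 93.2 CPM in the others, with no overlap. Nr1d1 was 3.91-fold higher (2.88 to 5.26), at 102 against 26.0 CPM, with 74.0, 149, 88.9 and 103 CPM against 23.0, 22.1, 32.1 and 23.7 CPM. Both genes separate the 2 sets of neurons under each barcode number.

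Cry1 was 2.88-fold higher (2.03 to 4.03) in the SCN-like neurons, at 73.1 against 25.4 CPM, and Per3 2.27-fold higher (1.84 to 2.78), at 186 against 82.1 CPM. Per2 was 2.69-fold higher (1.24 to 5.34), from 11 UMIs, and Arntl 2.16-fold higher (1.31 to 3.42), at 36.6 against 16.9 CPM. These last 2 did not reach 2-fold once 10 CPM had been added. For Clock the ratio was 1.19 (0.830 to 1.68) and for Cry2 1.23 (0.905 to 1.64), both with 1 inside the interval. Nr1d2 was 1.76-fold higher (1.25 to 2.44), and for Per1 the ratio was 1.58 (0.946 to 2.52). Since Arntl was higher along with Dbp and Nr1d1, the ratio to Arntl was 22.4 (14.8 to 35.6) in the SCN-like neurons and 16.3 (13.4 to 20.1) in the other neurons, with overlapping intervals.

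At the other end, neurons led by Agrp, the hunger-promoting peptide gene, were compared with the 405 neurons that were neither SCN-like nor Agrp-led. Of the 10 genes 3 (Per3, Nr1d1 and Dbp) were at least 2-fold lower, where 2.32% of all genes were. Dbp stood at 35.6 CPM (25.2 to 48.9) in the 61 Agrp-led neurons against 114 CPM, a ratio of 0.312 (0.219 to 0.434), with 15.5, 55.5, 52.7 and 16.0 CPM under numbers 1 to 4 against 90.4, 150.2, 119.7 and 105 CPM. Per3 had a ratio of 0.311 (0.209 to 0.448), at 29.0 against 93.2 CPM, and Nr1d1 of 0.318 (0.149 to 0.6), at 9.37 against 29.5 CPM. Lower by less than 2-fold were Cry1 (0.544, 0.303 to 0.915), Cry2 (0.583, 0.419 to 0.793) and Nr1d2 (0.668, 0.440 to 0.981). Arntl (0.803, 0.431 to 1.40), Clock (0.934, 0.678 to 1.27), Per1 (0.717, 0.403 to 1.2) and Per2 (1.38, 0.579 to 2.98) had 1 inside the interval. Set against each other, SCN-like neurons exceeded Agrp-led neurons 11.5-fold (8.17 to 16.7) for Dbp and 10.9-fold (5.54 to 23.7) for Nr1d1. Within the 405 neurons the Tac2-led cluster, of 54 cells, was also low in part. Its Dbp was 70.6 CPM (52.2 to 93.3) and its Per3 49.0 CPM (33.9 to 68.4), but its Nr1d1 27.4 CPM (16.5 to 42.7). The ratio to Arntl was 11.3 (6.41 to 21.7) there and 9.0 (5.27 to 16.5) in Agrp-led neurons, with overlapping intervals. Thinned to 1000 UMIs, Dbp was left in 1 of 54 Tac2-led neurons (1.85%, interval 0.0469 to 9.89%). In Agrp-led neurons it was left in 1 of 61 (1.64%, 0.0415 to 8.80%). When thinned to 2000 UMIs, these shares were 9.26% and 9.84%. The Agrp-led neurons were the deepest of the 5 clusters, with a median of 18648 UMIs.

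**Figure D5:**
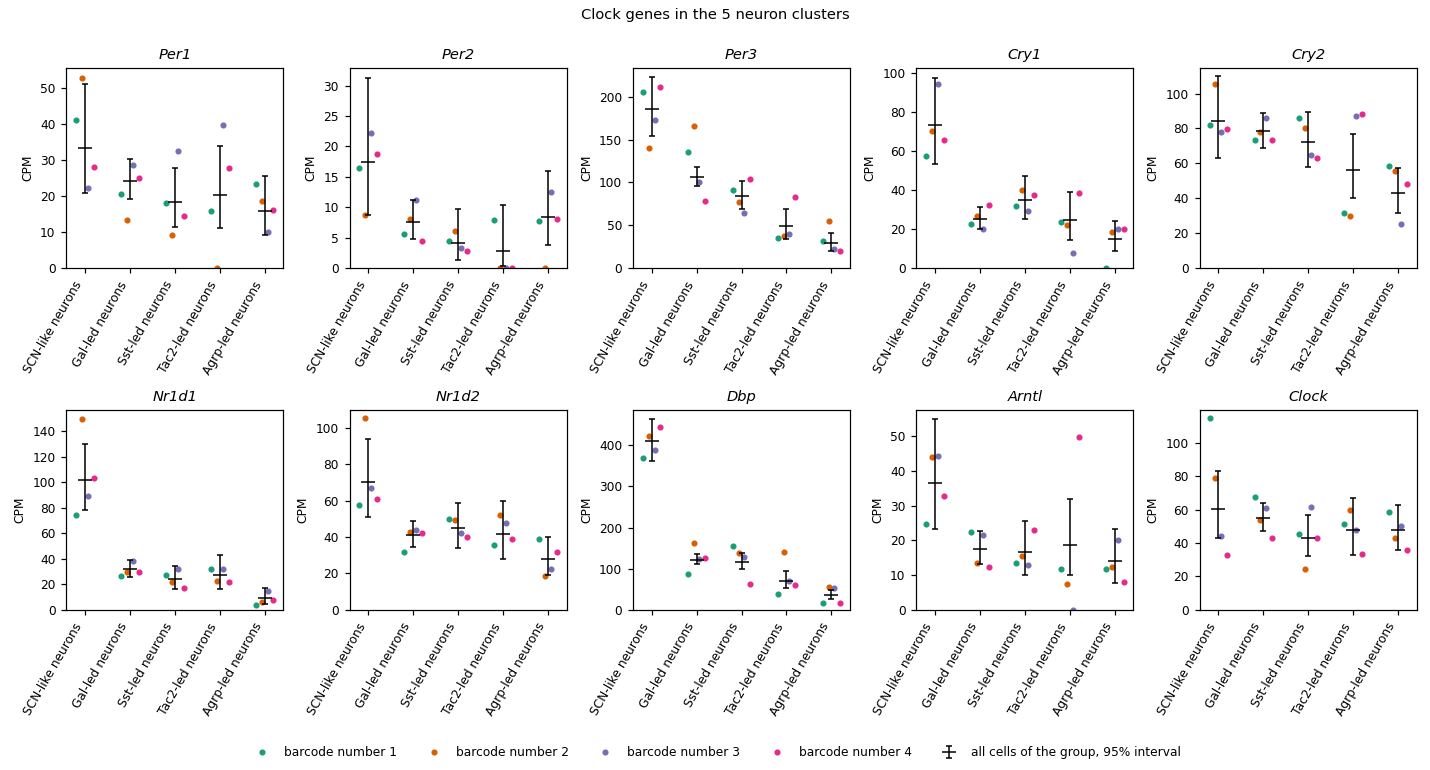
Level in CPM (y axis, from 0, with its own scale in each panel) of the 10 clock genes in the 5 neuron clusters (x axis). Black dashes with bars are all cells of a cluster with the exact 95% Poisson interval and colored points the 4 barcode numbers. Dbp and Nr1d1 are highest in the SCN-like neurons under each number, at 410.1 and 102 CPM in all, and lowest in the Agrp-led neurons, at 35.6 and 9.37 CPM.

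Along the oligodendrocyte lineage, from OPCs through diffOPCs to MOLs, Per3, Dbp and both Nr1d genes were lower after the OPC stage. Of the 10 genes 4 (Per3, Nr1d1, Nr1d2 and Dbp) were at least 2-fold lower in diffOPCs than in OPCs, where 9.61% of all genes were. Without barcode number 1 this count was 2. Dbp stood at 68.4 CPM in OPCs, with 63.3, 37.9, 98.1 and 88.1 CPM under numbers 1 to 4, and at 15.9 CPM in diffOPCs, with 11.8, 8.50, 20.04 and 23.1 CPM, which do not overlap. In MOLs it was 25.0 CPM, with 24.9, 14.8, 24.4 and 32.7 CPM. The ratio of diffOPCs to OPCs was 0.232 (0.131 to 0.389) for Dbp, 0.271 (0.126 to 0.533) for Nr1d2, 0.322 (0.148 to 0.645) for Nr1d1 and 0.338 (0.230 to 0.488) for Per3.

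Per3 was lower again in MOLs than in diffOPCs, at 102, 34.4 and 13.5 CPM along the 3 stages. Cry1 was instead higher in diffOPCs, with 28.5 CPM (19.9 to 39.6) in OPCs, 52.0 CPM (39.6 to 67.1) in diffOPCs and 28.1 CPM (23.4 to 33.4) in MOLs, a ratio of 1.83 (1.18 to 2.86) at the first step. Under numbers 1 to 4 it was 28.1, 15.8, 53.5 and 23.0 CPM in OPCs and 53.0, 51.0, 60.1 and 42.4 CPM in diffOPCs. Cry1 was thus higher in diffOPCs under each number, but the 2 sets of values overlap. Clock was 0.532 times (0.375 to 0.745) and Cry2 0.5097 times (0.3001 to 0.843) as high in diffOPCs as in OPCs, and Per2 had 0 UMIs in diffOPCs against 10 in OPCs (8.14 CPM), while Arntl (0.963, 0.459 to 2.00) and Per1 (0.939, 0.411 to 2.11) had 1 inside wide intervals. Median depth rose from 4022 UMIs in OPCs to 8604 in diffOPCs, and MOLs stood at 6145.5.

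The pars tuberalis, the part of the pituitary that wraps the ME and that reads day length through melatonin receptors, gave 60 cells. Per3 was 3.13-fold (2.56 to 3.81) and Nr1d1 2.43-fold (1.64 to 3.49) the neuron level there, and Dbp 2.23-fold (1.83 to 2.69). Under numbers 1 to 4 Per3 was 174, 186, 422 and 375 CPM in these cells and Nr1d1 57.9, 173, 57.5 and 65.6 CPM. Both spread beyond their pooled intervals, but all values lay above those of neurons, 83.7 to 106 and 27.4 to 36.8 CPM. Cry1 (0.870, 0.428 to 1.59) and Arntl (1.01, 0.425 to 2.04) had 1 inside the interval. Timeless, a gene named after a fly clock gene that in mammals acts at replication forks, was at 394 CPM in these cells and at most 27.9 CPM in any other of the 13 types. These cells also had the highest level of Fos, a gene induced by cell activity and by dissociation, at 2675 CPM against 50.3 CPM in neurons, while Per1 was read from 5 UMIs (11.8 CPM, 3.83 to 27.5). The part of dissociation in these levels was not tested.

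The share of cells with at least 1 UMI depends on depth, so each cell was also thinned to 1000 UMIs. As counted, Dbp was found in 54.4% of tanycytes, 40.3% of astrocytes, 65.5% of ependymocytes, 59.2% of neurons, 15.2% of MOLs and 7.18% of microglia. Median depths were 4128, 2664, 4867, 12821.5, 6145.5 and 3086.5 UMIs. After thinning these shares were 23.1%, 16.9%, 26.6%, 10.6%, 2.41% and 2.48%, so neurons, the deepest type, moved from the second to the fourth place among these 6 types. For Per3 the thinned share was 38.3% in the pars tuberalis, 24.7% in astrocytes, 17.1% in tanycytes, 8.81% in neurons and 1.20% in MOLs. Among neurons the thinned share of Dbp was 23.3% in the SCN-like cluster and 8.15% in the others. Most single cells had no UMI of a given clock gene at this depth, so whether cells of a type differ from each other in clock state was not detectable.

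Of 25 further genes of the clock pathway 24 had at least 50 UMIs, all but Wee1, and 6 of these were at least 2-fold higher in SCN-like than other neurons, where 2.07% of all genes were. They were Rora and Rorb, receptors that activate Arntl through the ROR element, Tef and Hlf, which bind D-boxes as DBP does, Bhlhe41, a repressor at E-boxes, and Fbxl21, which acts on CRY stability. Rorb stood at 629.5 CPM against 52.3 CPM, Rora at 456 against 40.3 CPM, Hlf at 181 against 29.3 CPM and Bhlhe41 at 238.5 against 59.3 CPM. Rorb (797 CPM) and Hlf (207 CPM) were also high in the pars tuberalis. In diffOPCs 8 of the 24 were at least 2-fold lower than in OPCs, where 9.61% of all genes were, among them Hlf (0.881 against 37.5 CPM, the former from 1 UMI), Bhlhe40 (2.65 against 41.5 CPM) and Rorb (5.29 against 34.2 CPM). These examples were chosen after their values had been seen.

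Levels were correlated as log2 values after 10 CPM had been added, across the 13 types, which share libraries and differ in depth. Dbp and Nr1d1 had a Pearson r of 0.90, Dbp and Nr1d2 of 0.89 and Per3 and Dbp of 0.81, while Arntl and Dbp had 0.45 and Clock and Dbp 0.09. No inverse relation of Arntl to the output genes appears among the types. With all mice killed within 1 window of the day, types in the same phase would show none, so this says nothing of the timing within the loop. Among 7713 genes with at least 500 UMIs, those with the pattern most like Dbp were Bola3 (r = 0.93) and Fuom (0.91), those most like Per3 were Fars2 (0.93) and Glt8d1 (0.91), and those most like Nr1d1 were Tead1 (0.93) and 5930430L01Rik (0.90). For Cry1 they were Rab4a (0.94) and Smpd1 (0.89), for Cry2 Cpe (0.92) and Endog (0.91), and for Nr1d2 Triqk (0.95) and Cep19 (0.90). For Per1 they were Atp2b4 (0.87) and Clybl (0.86), for Per2 Ppargc1a (0.96) and Pfkm (0.92), for Arntl Arhgap32 (0.89) and D430042O09Rik (0.86), and for Clock Gbf1 (0.89) and Xrcc5 (0.86). The highest of 7713 values over only 13 types are high in part through this selection, and no chance level was made. The pattern of Per2 rests on 157 UMIs, with none in diffOPCs, microglia and endothelial cells.

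Nr1d1, Dbp and Per3 overlap a neighbor that is also in the matrix, while Cry2, Arntl and Clock overlap annotated genes that are not in it. Nr1d1 overlaps Thra and Dbp overlaps Sphk2, both on the opposite strand, and Per3 overlaps Camta1 on the same strand. How reads in such stretches were assigned is not given in the sources used here. Thra was at 185 CPM in astrocytes, 379 CPM in tanycytes and 910.2 CPM in diffOPCs, Camta1 at 44.0, 47.1 and 72.3 CPM, and Sphk2 at 14.3, 30.5 and 20.3 CPM. In the same 3 types Nr1d1 was at 95.4, 44.4 and 9.70 CPM, Per3 at 284, 186 and 34.4 CPM and Dbp at 209, 251 and 15.9 CPM. No pair had the same full order of these 3 types, though Sphk2 and Dbp were both highest in tanycytes. Whether reads of a neighbor entered the levels of these clock genes was not tested.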

How the data were processed

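Single-cell UMI counts of the ME of fasted and refed mice were analysed. The authors mapped the reads to GRCm38 (mm10) and made the deposited counts with Cell Ranger 2.0, per the labels, as 1 matrix of all cells without normalization. The gene annotation and the rule for calling cells are not given in the sources used here. Identifiers of 27645 of 27998 genes were matched to symbols in GENCODE mouse release 21. The clock genes, the other lists and the comparisons were chosen with earlier results of these data known.

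From these counts, cells were clustered with scanpy 1.11.5 on 2000 variable genes without 35 clock genes, 30 principal components, 15 neighbors and Leiden resolution 1. A cluster took the name of a marker list at a score of at least 0.3 and 1.5 times the next list, with 3 markers at least 4-fold above the median cluster, thresholds set after the data had been seen. No cell was removed for depth. Scrublet called 50 doublets (0.836%), which were kept. Levels are summed UMIs per 1000000 UMIs, with Poisson and Clopper-Pearson intervals from scipy 1.17.1. A count of 0 was read as up to 3 counts. Folds over many genes used a pseudocount of 10 CPM and genes with at least 50 UMIs. The rule for named genes took all 10 clock genes and, for each, the 2 genes most like it in level over the types. Scripts were tested on simulated counts. Alternatives were other clusterings, K-means, doublets left out, a cell filter, thinned cells, other scalings and each barcode number left out.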

Additional observations from a re-analysis of the deposited data

Results flagged for a closer look

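Over 52 pairs of a clock gene and a cell group with at least 50 UMIs, 2 had 1 barcode number far from the other 3, and about 1 in 20 such sets of 4 values would be marked by chance. Cry1 in MOLs was 31.9 CPM under number 2 and 26.8, 27.2 and 27.4 CPM under the others. Cry2 in SCN-like neurons was 105 CPM under number 2 and 77.8, 79.6 and 82.2 CPM under the others.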

How the results depend on the processing

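No paired analysis was possible because the replicate numbers of the labels could not be tied to the cell barcodes and no test was made. With every cell thinned to 1000 UMIs, Dbp was 275.7 CPM in tanycytes, 193 CPM in astrocytes and 354 CPM in SCN-like neurons, and the ratio to Arntl in neurons was 30.7. That ratio rests on few UMIs of Arntl, which thinning left in 6 of the neurons typed at full depth. Without mitochondrial and ribosomal protein genes in the total, Dbp was 289.6 CPM in tanycytes and 470.1 CPM in SCN-like neurons, and Per3 304 CPM in astrocytes. The share of cells with Dbp was 32.6% in astrocytes and 5.43% in MOLs when thinned to 2000 UMIs. With 1 barcode number left out, clustered again or, as added after seeing the data, with the cell types kept, Dbp ranged from 234 to 256 CPM in tanycytes, 199.7 to 216 CPM in astrocytes, 392 to 423 CPM in SCN-like neurons, 22.1 to 28.6 CPM in MOLs and 13.4 to 17.8 CPM in diffOPCs, and Per3 from 277 to 294 CPM in astrocytes and 11.9 to 14.8 CPM in MOLs. The ratio to Arntl ranged from 38.2 to 50.9 in tanycytes, 26.3 to 34.9 in astrocytes, 16.3 to 18.3 in neurons, 20.6 to 25.2 in SCN-like neurons and 6.65 to 9.06 in MOLs. The thinned share of cells with Dbp ranged from 16.8 to 17.1% in astrocytes and 1.84 to 2.80% in MOLs. The count of clock genes higher in SCN-like neurons ranged from 3 to 4, and of those lower in diffOPCs than OPCs from 2 to 5, with the 2 reached without number 1. Keeping clock genes among the clustering genes, Leiden resolution 0.5 and the cell filter moved 0 of 155 values each beyond counting error, Leiden resolution 2 moved 2 of 155, leaving out doublets 1 of 197, K-means 2 of 121, the mean of per-cell CPM 5 of 140 and barcode numbers left out 33 of 1408. The other total moved 18 of 140, thinning to 1000 UMIs 48 of 154 and thinning to 2000 UMIs 21 of 42. K-means formed no neuron, SCN-like or pars tuberalis cluster, so 34 values could not be given. At Leiden resolution 2 tanycytes numbered 697 instead of 1126, unnamed cells 909 instead of 570 and pars tuberalis cells 84 instead of 60. The other clusterings, the cell filter and the run without doublets reuse most of the same cells. Few values could therefore leave the main intervals, and low counts of moved values are weak evidence of stability. Leaving UMIs out of the total can only raise a CPM. Shares at 2000 UMIs were set against intervals of the shares at 1000 UMIs, and such a share tends to grow with the UMIs kept. Upward moves are thus built into these 2 settings. Thinned values also carry a wider counting error of their own, which the comparison left out. The cause of the other shifts was not tested. Arntl was read from 467 UMIs in all.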

Other observations

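Per1 is also a target of the glucocorticoid receptor and of activity signals, so genes of both kinds were read beside it. Tsc22d3, a glucocorticoid-induced gene, stood at 2012 CPM in VLMCs, 702 CPM in astrocytes, 549 CPM in tanycytes and 27.3 CPM in diffOPCs, and Sgk1 at 1073 CPM in MOLs and 13.8 CPM in astrocytes. Fkbp5 was at 115 CPM in VLMCs and 5.38 CPM in astrocytes. Fos stood at 899 CPM in VLMCs, 849 CPM in mural cells, 628 CPM in microglia and 21.2 CPM in astrocytes. Per1 stood at 19.7 CPM in VLMCs, 36.0 CPM in mural cells, 10.3 CPM in microglia and 25.8 CPM in astrocytes.

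In mural cells Dbp was 282 and 320.3 CPM under barcode numbers 1 and 2 and 102 and 13.9 CPM under numbers 3 and 4, from 18 to 21 cells each. What the numbers stand for is not given in the labels.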
